A study of Mus musculus with 9 samples.

Results

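The transcripts described here are 7 long noncoding RNAs, taken by gene symbol from the 41128 genes of the count table of mouse B cell lymphomas. They are Malat1 and Neat1, which stay in the nucleus, Gas5, Snhg1 and Snhg12, whose introns encode small nucleolar RNAs (snoRNAs), and Dleu2 and Mir17hg, whose transcripts carry microRNAs. RNA from 9 lymph node lymphomas was sequenced, 1 library per tumor, in 2 genotypes. The 3 Bcl6 tumors came from IµBcl6 Smc3 wt/wt mice and the 6 Smc3/Bcl6 tumors from IµBcl6 Smc3 wt/- mice. Both genotypes carried the IµBcl6 transgene, which maintains the transcriptional repressor Bcl6 in B cells. Both also carried Cγ1-Cre, active in B cells on their way into the germinal center, which in Smc3/Bcl6 mice deletes 1 allele of Smc3, a core subunit of the cohesin ring, so that cells of other types in a sample would keep both alleles. The age of the mice is not given in the sources used here. By the labels, replicate 1 of both genotypes came from the mesenteric lymph node and the remaining tumors from a lymph node, whereas the study's text names the mesenteric node for all of them. The labels number the tumors but do not say that each came from a separate mouse, so the p-values below measure the spread between these samples.

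Malat1 RNA concentrates in nuclear speckles, where splicing factors gather, and Neat1 RNA is the scaffold of paraspeckles, nuclear bodies that form around it. Snhg genes and Gas5 are snoRNA hosts: their introns release box C/D or H/ACA snoRNAs, which guide the chemical modification of ribosomal RNA, while the spliced host RNA reaches the cytoplasm and is typically removed by nonsense-mediated decay. Dleu2 hosts miR-15a and miR-16-1, microRNAs that restrain the cell cycle and Bcl2 and are lost in chronic lymphocytic leukemia. Mir17hg hosts the miR-17-92 cluster, an oncogenic cluster amplified in B cell lymphoma and induced by Myc and E2f factors.

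The mature microRNAs are shown because their seeds (bases 2 to 8, in capitals) set which messages these hosts' products can pair with. RefSeq (GRCm38.p6) held all 8 of those looked for. Both microRNAs of Dleu2, read from the minus strand of chromosome 14, share 1 seed, AGCAGCA.
miR-15a-5p (chr14:61632075-61632096): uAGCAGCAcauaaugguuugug
miR-16-5p (chr14:61631936-61631957): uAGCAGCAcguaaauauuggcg
The 6 microRNAs of Mir17hg lie on the plus strand of the same chromosome and fall into 4 seeds. miR-17 and miR-20a share AAAGUGC, miR-19a and miR-19b share GUGCAAA, and miR-18a and miR-92a each have their own.
miR-17-5p (chr14:115043684-115043706): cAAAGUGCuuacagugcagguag
miR-20a-5p (chr14:115044183-115044205): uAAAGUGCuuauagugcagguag
miR-18a-5p (chr14:115043867-115043889): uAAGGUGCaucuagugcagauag
miR-19a-3p (chr14:115044048-115044070): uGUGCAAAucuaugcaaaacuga
miR-19b-3p (chr14:115044358-115044380): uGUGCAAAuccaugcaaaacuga
miR-92a-3p (chr14:115044476-115044496): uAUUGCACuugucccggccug
These libraries were made from long RNA, and mature microRNAs were not measured.

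Total counts ranged from 10156728 to 17774577 per tumor. The B cell markers Cd79a, Cd79b, Ms4a1 and Pax5 summed to 1358 to 4708 CPM (library-size-scaled counts, by the TMM method) in Bcl6 tumors and 2573 to 6223 CPM in Smc3/Bcl6 tumors, so the labelled cell type was present in every library. Smc3 itself lay between 87.9 and 126 CPM in Bcl6 tumors and between 89.5 and 111 CPM in 5 Smc3/Bcl6 tumors, with 27.9 CPM in Smc3/Bcl6 tumor 2. That tumor stood apart: its level lay below all 8 other tumors for 30.9% and above all 8 for 29% of the 14057 genes tested, and its deviation from the other tumors went with exon length (Spearman correlation across genes -0.465, against -0.0305 to 0.274 in the other 8 tumors). Its median log2 deviation was 1.05 in the shortest 20% of genes and -1.16 in the longest 20%. The 5 T cell markers summed to 86.9 to 1432 CPM in Bcl6 and 24.1 to 1549 CPM in Smc3/Bcl6 tumors, the 5 macrophage markers to 255 to 1906 and 132 to 2153 CPM, and both sums were highest in tumor 2. Their members were split there: Cd3d, Cd3g, Cd68, C1qa and C1qb were above all other tumors, while Csf1r was at 99.8 CPM against a median of 311 in the others and Cd4 at 15.7 against 26.5. The B cell markers were also split in tumor 2. Cd79b was the highest of all tumors at 2299 CPM, and Cd79a was at 791 CPM against a median of 782. Pax5 was the lowest, at 2.96 CPM against 14.6 to 55.9, and Ms4a1 was at 359 against a median of 1077. The 5 stromal markers summed to 93.3 to 123 and 18.3 to 327 CPM, with the lowest sum in tumor 2, most of it the endothelial Pecam1 at 15.8 CPM. The differences of the 7 transcripts and the list medians below are therefore also given without that tumor, and the part of length or cell makeup in the results was not tested. In such bulk samples, fewer cells of a type and less RNA per cell cannot be told apart.

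Malat1 was by far the most abundant of the 7 transcripts, and neither nuclear transcript passed the study's thresholds between the genotypes in the comparison of all 9 tumors. Per kilobase of annotated exon, the mean over 9 tumors was 713 ± 389 CPM per kb (SD) for Malat1, 68.7 ± 24.1 for Gas5, 8.83 ± 3.85 for Snhg1, 8.47 ± 4.31 for Neat1, 2.12 ± 0.724 for Snhg12, 1.29 ± 0.389 for Mir17hg and 1.25 ± 0.319 for Dleu2. On this scale Malat1 exceeded Gas5 and Gas5 exceeded Snhg1 in all 9 tumors. Snhg1 exceeded Neat1 in 4 of 9 tumors, and Mir17hg exceeded Dleu2 in 5 of 9, so neither of these neighbors in the order could be separated. Neat1 exceeded Snhg12, and Snhg12 exceeded Mir17hg, in 8 of 9. Exon lengths come from all annotated transcripts together, which leave no intron for Snhg1 and Snhg12 and cover 3760 of the 4118 bases of Gas5. The per-kilobase level of the spliced RNA of these 3 is therefore understated. For Neat1 all 20771 bases were used, although a shorter Neat1 RNA covers only their first part.

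Malat1 (ENSMUSG00000092341.2, a lincRNA gene on the minus strand of chromosome 19, 5795690 to 5802672 in GRCm38, 6983 bases in 1 exon) was the 9th most counted gene of the table. The Bcl6 tumors had 3633, 8763 and 3374 CPM, and the Smc3/Bcl6 tumors ranged from 1225 to 9436 CPM with a median of 4153. The ranges overlapped almost wholly: Smc3/Bcl6 tumor 5 was the highest of the 9, Bcl6 tumor 2 came next, and Smc3/Bcl6 tumor 2 was the lowest. The means were 5257 ± 3039 CPM over the Bcl6 tumors (SD, n = 3) and 4844 ± 2836 CPM over the Smc3/Bcl6 tumors (SD, n = 6). Its log2 fold change was -0.12 (standard error 0.58, 95% interval -1.42 to 1.18), and the exact two-sided permutation p of log2 CPM was 0.857. Without tumor 2 the sign turned, to 0.10, and with Smc3/Bcl6 and Bcl6 tumors 1 to 3 paired by replicate number it was -0.84 (standard error 0.78), a pairing in which tumor 2 is 1 of 3 pairs. Without Bcl6 tumor 2, the highest of its group, it was 0.46. The mature end of Malat1 carries no poly(A) tail, and the library kit was one for mRNA, so these counts are of whatever Malat1 RNA that kit took up.

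Neat1 (ENSMUSG00000092274.2, on the same strand of chromosome 19, 5824708 to 5845478, 20771 bases) had 159, 194 and 200 CPM in the Bcl6 tumors. In the Smc3/Bcl6 tumors it ranged from 30.1 to 340 CPM with a median of 149.5. The 3 Bcl6 tumors sat close together inside the wide Smc3/Bcl6 range, whose lowest value was again tumor 2 and whose highest was again tumor 5. Means were 184 ± 22.3 CPM (SD, n = 3) and 172 ± 112 CPM (SD, n = 6). The log2 fold change of Neat1 was -0.10 (standard error 0.58, 95% interval -1.40 to 1.20), and its exact permutation p was 0.619. It was 0.13 without tumor 2, 0.0084 without Smc3/Bcl6 tumor 6, and -1.08 (standard error 0.60) with the tumors paired by number, where Smc3/Bcl6 was the lower in all 3 pairs. DESeq2 with the same pairs gave -1.03 at an unadjusted p of 0.0553 (adjusted p = 1.00, Benjamini-Hochberg), past the study's thresholds, which edgeR with the pairs did not give. A short and a long Neat1 RNA share their first part and only the long one builds paraspeckles, and counts per gene do not separate them.

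**Figure D1:**
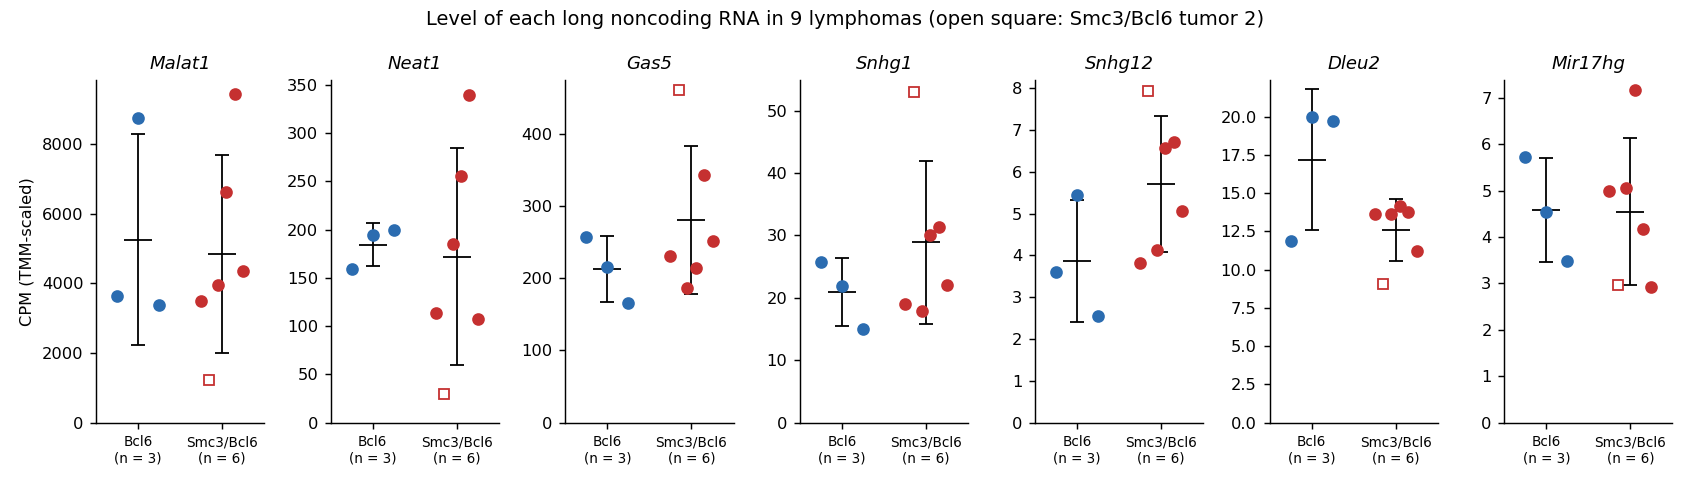
CPM (TMM-scaled, vertical axes from 0, 1 panel per transcript) of the 7 long noncoding RNAs in 3 Bcl6 tumors (blue) and 6 Smc3/Bcl6 tumors (red), with the mean and SD of each group; the open square is Smc3/Bcl6 tumor 2. The groups overlap in every panel, and the open square is the lowest point for Malat1, Neat1 and Dleu2 and the highest for Gas5, Snhg1 and Snhg12.

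The snoRNA hosts had higher mean levels in Smc3/Bcl6 than in Bcl6 tumors, all 3 within the spread of the tumors, and in each the highest value was that of tumor 2. Gas5, named for its accumulation in growth-arrested cells, is a 5′ terminal oligopyrimidine gene, a class of transcripts that start with C and a run of pyrimidines and whose translation follows nutrient signaling. Gas5 (ENSMUSG00000053332.8, plus strand of chromosome 1, 161034422 to 161038539, 3760 exon bases) had 257, 216 and 166 CPM in Bcl6 tumors and 187 to 460 CPM, median 241, in Smc3/Bcl6 tumors. Apart from tumor 2 at 460 CPM and tumor 5 at 342 CPM, the Smc3/Bcl6 values lay inside the Bcl6 range. The log2 fold change of Gas5 was 0.40 (standard error 0.33, 95% interval -0.34 to 1.14), and its exact permutation p was 0.310. Leaving out tumor 2 brought it to 0.22, with an interval from -0.30 to 0.75.

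Snhg1 (ENSMUSG00000097188.1, plus strand of chromosome 19, 8723475 to 8726443) lies between Slc3a2, which encodes the heavy chain of amino acid transporters, and Wdr74. It had 25.8, 21.8 and 15.0 CPM in Bcl6 tumors and 17.8 to 53.0 CPM, median 26.1, in Smc3/Bcl6 tumors. Tumor 2 was the highest by a wide margin, the next being tumor 5 at 31.3 CPM. The log2 fold change of Snhg1 was 0.47 (standard error 0.39, 95% interval -0.40 to 1.33; exact permutation p = 0.310), and 0.23 without tumor 2. Its identifier was found in the annotation used here only through its symbol.

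Snhg12 (ENSMUSG00000086290.3, plus strand of chromosome 4, 132308623 to 132311024) was the scarcest of the 3, with 27 to 101 counts per library. Its level was 3.61, 5.45 and 2.55 CPM in Bcl6 tumors and 3.81 to 7.92 CPM, median 5.81, in Smc3/Bcl6 tumors. Tumors 2, 4 and 5 of the Smc3/Bcl6 group lay above every Bcl6 tumor, and the other 3 lay within the Bcl6 range. The log2 fold change of Snhg12 was 0.55 (standard error 0.42, 95% interval -0.37 to 1.48; exact permutation p = 0.143). It kept most of its size without tumor 2, at 0.46 (standard error 0.37), and ranged from 0.33 to 0.87 when each tumor was left out in turn, the ends being without Bcl6 tumor 3 and without Bcl6 tumor 2.

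The start sites of these hosts are shown because snoRNA host genes commonly begin with a pyrimidine run, which can be read in them, as can a TATA element. RefSeq (GRCm38.p6) held promoters for 6 of the 7 genes, all but Neat1. Each line below gives 75 bases on the transcript's strand with the annotated start at base 46, and capitals mark a TATA 45 to 20 bases before the start and a run of a C and at least 4 C or T that begins within 5 bases of it.
Gas5, second of 2 annotated starts (chr1:161035121-161035195, plus strand): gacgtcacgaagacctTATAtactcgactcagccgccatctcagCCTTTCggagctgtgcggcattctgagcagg
Snhg1 (chr19:8723442-8723516, plus strand): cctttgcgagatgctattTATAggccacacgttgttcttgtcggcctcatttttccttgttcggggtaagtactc
Snhg12 (chr4:132308633-132308707, plus strand): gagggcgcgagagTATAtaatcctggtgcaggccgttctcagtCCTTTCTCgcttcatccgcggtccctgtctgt
Gas5 and Snhg12 held both, and Snhg1 the TATA only. Of 32851 RefSeq promoters searched the same way on the transcript's strand, 18.35% held the run, 6.62% the TATA and 1.2% both. The first Gas5 start, Malat1 and Dleu2 held neither, and the RefSeq start of Mir17hg lies inside the microRNA cluster and is not shown.

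The small RNA genes inside these hosts had few or no counts. Of the 10 small RNA genes annotated inside Gas5, 9 were in the table and all were at 0 counts in every tumor, beside 31289 counts of Gas5 in total. All 8 inside Snhg1 were at 0. Of the 4 of Snhg12 in the table, Snora16a, an H/ACA snoRNA, had 59 counts over the 9 tumors and the other 3 had 0. How reads that overlap a host and a small RNA were counted is not given in the sources used here, and the annotated exons of Snhg1 and Snhg12 leave no intron, so these counts do not give the level of the snoRNAs. A box C/D snoRNA of each of these hosts was searched for the C box (TGATGA) and D box (CTGA) typical of such RNAs, in GENCODE M21 (GRCm38). Those of Gas5 and Snhg12 held both and are shown with the boxes in capitals. Snord22 of Snhg1 held CTGA but no exact TGATGA and is not shown.
Snord47 in Gas5 (chr1:161038082-161038158, plus strand): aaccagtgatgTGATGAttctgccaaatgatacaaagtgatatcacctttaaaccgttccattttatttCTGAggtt
Snord99 in Snhg12 (chr4:132310691-132310764, plus strand): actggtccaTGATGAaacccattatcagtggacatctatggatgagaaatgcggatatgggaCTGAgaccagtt

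Dleu2 was the member nearest to a genotype difference in the exact test and the most even across tumors, and Mir17hg had nearly equal means. Dleu2 (ENSMUSG00000097589.4, minus strand of chromosome 14, 61602839 to 61682373, 11334 exon bases in 11 blocks) had 11.9, 19.9 and 19.7 CPM in Bcl6 tumors and 9.09 to 14.1 CPM, median 13.6, in Smc3/Bcl6 tumors. Bcl6 tumors 2 and 3 lay above all 6 Smc3/Bcl6 tumors, and Bcl6 tumor 1 lay among them. Means were 17.2 ± 4.59 CPM (SD, n = 3) and 12.6 ± 2.01 CPM (SD, n = 6), and the log2 fold change of Dleu2 was -0.45 (standard error 0.28, 95% interval -1.08 to 0.18), with an exact permutation p of 0.119. It was -0.37 without tumor 2. Without Bcl6 tumor 1, it was -0.72 at an unadjusted p of 0.0457 (adjusted p = 1.00 by edgeR's quasi-likelihood test, Benjamini-Hochberg), past the study's thresholds. With limma and a quality weight per tumor it was -0.57 (adjusted p = 0.563, Benjamini-Hochberg), also past them. A length and GC content offset brought it to -0.20 (standard error 0.35), and the offset with the tumors paired by number to 0.068. Both of these include Smc3/Bcl6 tumor 2. With the offset and without that tumor it was -0.44 (standard error 0.25). Trim13, Kcnrg, Gm27845 (168 counts) and 2 lincRNAs counted 50 and 317 times overlap Dleu2 on the opposite strand, and Trim13 had 486 counts in all beside 1815 of Dleu2. The lincRNA Gm27010, with 111 counts, lies inside Dleu2 on the same strand. Whether counting used strand is not given, so reads of these partners and of Dleu2 cannot be told apart where they overlap. For Gm27010, counting by strand would not separate them either. Of the microRNA hairpins of Dleu2, Mir16-1 had 6 counts and Mir15a 0.

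Mir17hg (ENSMUSG00000089726.2, plus strand of chromosome 14, 115042879 to 115046727) was the least counted member, with 28 to 108 counts per library. It had 5.73, 4.53 and 3.49 CPM in Bcl6 tumors and 2.92 to 7.17 CPM, median 4.58, in Smc3/Bcl6 tumors, which span the Bcl6 range on both sides. Means were 4.58 ± 1.12 CPM (SD, n = 3) and 4.55 ± 1.59 CPM (SD, n = 6). Its log2 fold change was -0.0094 (standard error 0.41, 95% interval -0.93 to 0.91), a value whose sign turned under other scalings and, at 0.11 (standard error 0.36), without tumor 2, and its exact permutation p was 0.857. All 6 microRNA hairpins inside it were at 0 counts. Myc, listed with E2f1, E2f2, E2f3 and Mycn as its known activators, averaged 172 ± 25.8 CPM over Bcl6 tumors (SD, n = 3) and 188 ± 54.5 CPM over Smc3/Bcl6 tumors (SD, n = 6), or 168.98 ± 30.4 CPM (SD, n = 5) without tumor 2, and none of the 4 activators tested passed the thresholds.

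Across the genotypes, 0 of the 7 transcripts passed both thresholds of the study, a log2 fold change beyond 0.56 in either direction at an unadjusted p under 0.1, in edgeR's quasi-likelihood test. Of all 14057 genes tested, 1.28% passed as higher and 0.868% as lower in Smc3/Bcl6 tumors, so a share of 0 among 7 genes is near the background. The adjusted p was 1.00 for each of the 7 (edgeR's quasi-likelihood test, Benjamini-Hochberg adjustment over all genes), and the smallest unadjusted p was 0.145, for Dleu2. At an adjusted p below 0.05 edgeR called 0 of all genes (0%), with 79 at an unadjusted p below 0.05. The groups did not overlap for 0 of the 7, against 0.477% of all genes. With replicates 1 to 3 paired by number, 0.337% of 13360 genes passed as higher and 1.9% as lower, and again 0 of the 7. Without Smc3/Bcl6 tumor 2, 2.43% of 13942 genes passed as higher and 1.39% as lower, and 0 of the 7. The smallest p that the exact test over 84 splits can give is 0.0238, and the 7 tests were not adjusted for one another. The intervals still allow sizable differences, up to 1.48 on the log2 scale for Snhg12 and down to -1.42 for Malat1.

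**Figure D2:**
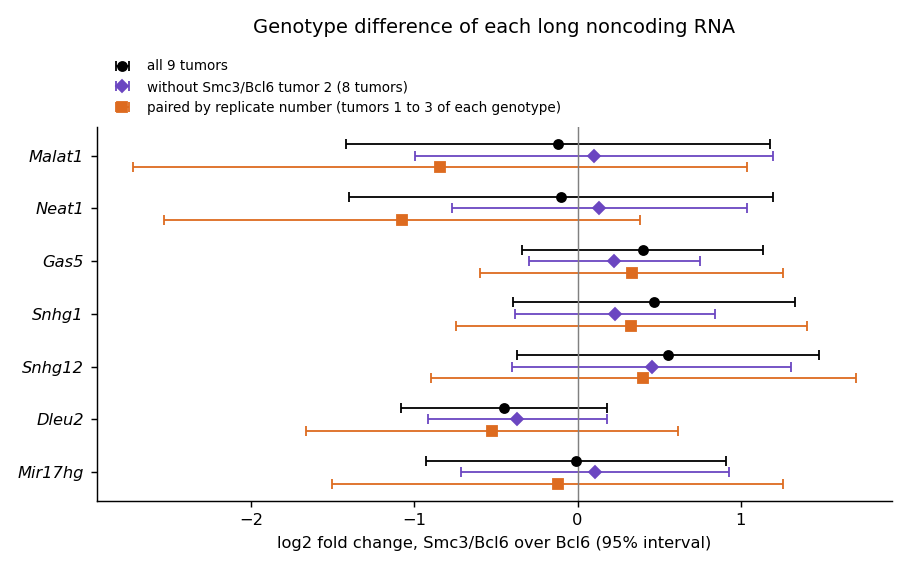
log2 fold change (Smc3/Bcl6 over Bcl6, horizontal axis) of each transcript with its 95% interval, from all 9 tumors (black), without Smc3/Bcl6 tumor 2 (purple) and with tumors 1 to 3 of each genotype paired by number (orange). Every interval spans 0, and Malat1 and Neat1 sit at -0.84 and -1.08 in the paired comparison against -0.12 and -0.10 with all tumors.

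The nuclear and the snoRNA host transcripts lay at opposite ends of their ranges in Smc3/Bcl6 tumor 2, where the microRNA hosts were, with the nuclear transcripts, at their lowest sum (12.04 CPM). Malat1 and Neat1 together had 3792, 8957 and 3574 CPM in the Bcl6 tumors, and 1256 to 9776 CPM in the Smc3/Bcl6 tumors. The 5 hosts together had 304, 268 and 207 CPM in the Bcl6 tumors and 227 to 533 CPM in the Smc3/Bcl6 tumors. Gas5 made up 78.7% to 86.3% of the host sum in every tumor, so this sum mostly follows Gas5. The ratio of the nuclear sum to the host sum was 12.5, 33.5 and 17.3 in the Bcl6 tumors. It was 13.2, 18.2, 25.3, 24.6 and 15.2 in Smc3/Bcl6 tumors 1, 3, 4, 5 and 6, all inside the Bcl6 range, and 2.36 in tumor 2. On the log2 scale the ratio averaged 4.27 ± 0.73 over Bcl6 tumors (SD, n = 3), 3.73 ± 1.27 over Smc3/Bcl6 tumors (SD, n = 6), and 4.22 ± 0.41 (SD, n = 5) without tumor 2. In tumor 2 the nuclear sum was the lowest and the host sum the highest of the 9.

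**Figure D3:**
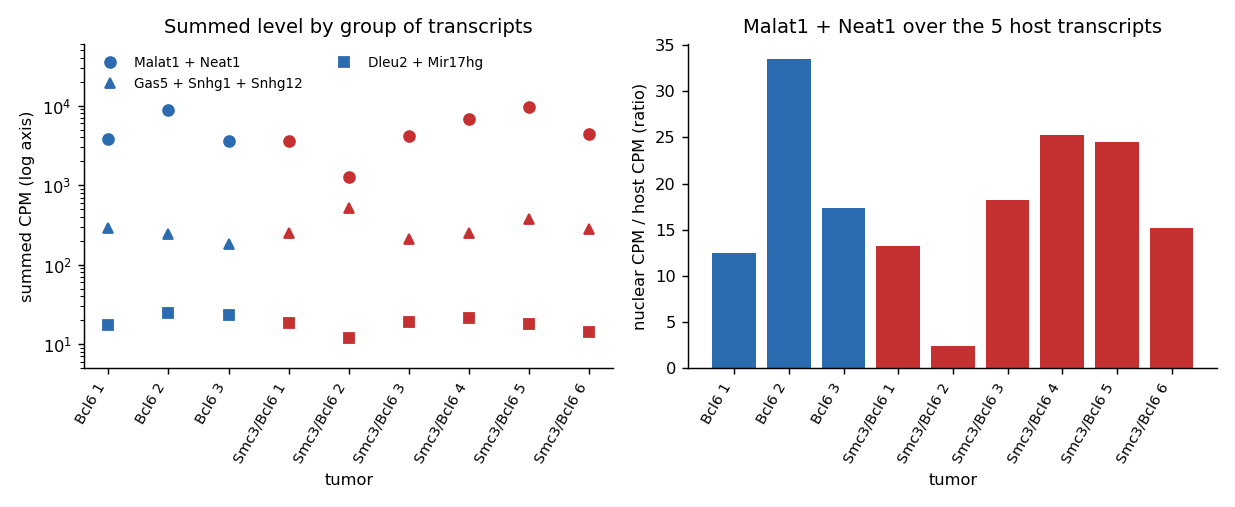
Left, summed CPM (log axis) of the nuclear (circles), snoRNA host (triangles) and microRNA host (squares) transcripts in each tumor, with Bcl6 tumors in blue and Smc3/Bcl6 tumors in red. Right, the nuclear sum divided by the sum of the 5 hosts (bars from 0), which is 2.36 in Smc3/Bcl6 tumor 2 and 12.5 to 33.5 in the other 8 tumors.

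Neat1 relative to Malat1 varied less over the tumors than either level. Neat1 counts were 4.37%, 2.21% and 5.92% of Malat1 counts in the Bcl6 tumors and 2.46% to 4.67% in the Smc3/Bcl6 tumors. Tumor 2 had the same 2.46% as tumor 6, while its Neat1 level was 11.3-fold and its Malat1 level 7.70-fold below that of the highest tumor. Without tumor 2, Malat1 ranged from 3374 to 9436 CPM and Neat1 from 107 to 340 CPM, beside 2.21% to 5.92% for the ratio. The smaller spread of the ratio therefore rests mostly on tumor 2. The other transcripts varied less, with the highest tumor 2.77-fold above the lowest for Gas5, 3.54-fold for Snhg1, 3.11-fold for Snhg12, 2.20-fold for Dleu2 and 2.45-fold for Mir17hg, against a median of 4.38-fold over all genes tested.

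Relative to the mean of the other 8 tumors, tumor 2 was lower by a log2 difference of -2.03 for Malat1, -2.59 for Neat1, -0.66 for Dleu2 and -0.61 for Mir17hg, and higher by 1.01 for Gas5, 1.25 for Snhg1 and 0.79 for Snhg12. Annotated exon lengths were 20771 bases for Neat1, 11334 for Dleu2, 6983 for Malat1, 3760 for Gas5, 3536 for Mir17hg, 2969 for Snhg1 and 2402 for Snhg12. After a smooth trend on length and GC content was taken out of each tumor, the deviation of tumor 2 was -1.21 for Malat1, still the lowest of the 9, and 1.09 for both Gas5 and Snhg1, still the highest. It was -0.65 for Neat1, 0.20 for Snhg12 and -0.48 for Mir17hg, all inside the range of the other tumors. For Dleu2 it turned to 0.93, the highest of the 9.

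**Figure D4:**
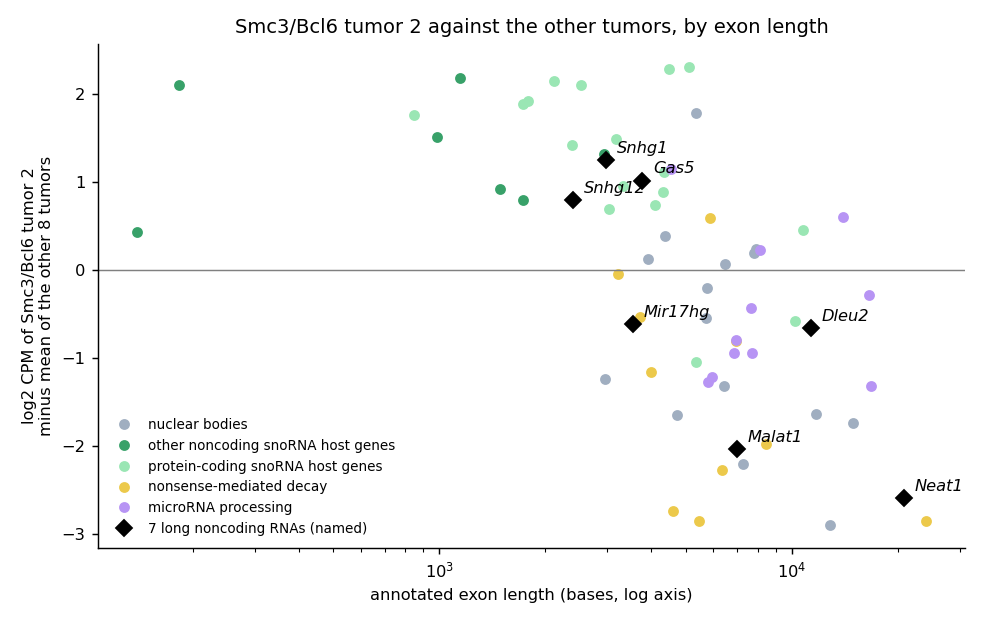
Log2 CPM of Smc3/Bcl6 tumor 2 minus the mean of the other 8 tumors (vertical axis) against annotated exon length in bases (log axis), for the 7 long noncoding RNAs (black diamonds) and 5 gene lists. Snhg1, Gas5 and Snhg12 lie above 0 with most other snoRNA hosts, and Malat1 at -2.03 and Neat1 at -2.59 lie below with most nonsense-mediated decay factors.

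Genes that work with these transcripts were read from lists, in which 0 genes passed the thresholds in either direction (background 1.28% higher and 0.868% lower), also with the tumors paired by number. Without tumor 2, 3 genes of all the lists passed, all as higher (background 2.43% higher and 1.39% lower), which is near the background. They were 1 of 11 microRNA processing genes tested, 1 of 10 other long noncoding RNAs and 1 of 11 neighbor genes. These are Ago4, an Argonaute protein that binds microRNAs (0.73), the noncoding Ftx of the X-inactivation center (0.61) and Zbtb37 beside Gas5 (0.67). Each had an adjusted p of 0.985 (edgeR, Benjamini-Hochberg). Of the other noncoding snoRNA hosts, 8 of 16 listed were tested, 7 of the 8 had a log2 fold change above 0 (57.43% of all genes did), and their median was 0.64, against 0.06 over all genes. Without tumor 2 the median was 0.35 with 5 above 0, against a median of 0.03 and 53.2% above 0 over all genes. These medians and shares over all genes are the background for every list below. Zfas1, the most counted, averaged 33.8 ± 8.66 CPM over Bcl6 tumors (SD, n = 3) and 52.5 ± 25.4 CPM over Smc3/Bcl6 tumors (SD, n = 6), or 43.8 ± 15.7 CPM (SD, n = 5) without tumor 2. Snhg3, the least counted, had 0.646 ± 0.328 and 1.22 ± 0.666 CPM, or 0.956 ± 0.186 CPM without it. Tumor 2 was above all other tumors in 6 of the 8 and below them in 0, against 29% and 30.9% of all genes tested. The median annotated exon length of this list was 1146 bases, against 4085 over all genes tested.

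Protein-coding snoRNA hosts include ribosomal protein genes, whose reads can be shared with processed pseudogenes. Of 17 tested, 14 lay above 0 with a median log2 fold change of 0.55. Tumor 2 was the highest of all tumors in 13, against 29% of all genes tested. Without tumor 2 the median was 0.05, with 9 of 16 above 0. Eef2, the elongation factor and the most counted of them, had 909 ± 120 CPM (SD, n = 3) and 1327 ± 566 CPM (SD, n = 6), or 1195 ± 518 CPM (SD, n = 5) without tumor 2. Of 10 snoRNA particle proteins, among them the methyltransferase Fbl and the pseudouridine synthase Dkc1, 4 lay above 0 and the median was -0.06. Over all genes 57.43% lay above 0. Tumor 2 was the highest of all tumors in 7, against 29% of all genes tested. Without tumor 2 the median was -0.31 with 1 above 0, against 53.2% of all genes. Nop56, a core protein of box C/D particles that itself hosts snoRNAs, had 201 ± 36.8 CPM (SD, n = 3) and 194 ± 54.6 CPM (SD, n = 6), or 172 ± 12.7 CPM (SD, n = 5) without tumor 2.

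Nonsense-mediated decay factors, which remove many spliced host RNAs, had a median log2 fold change of -0.06 over 10 genes, 3 of them above 0, and of 0.07 with 8 above 0 without tumor 2. That tumor was the lowest of all 9 for 8 of the 10, against 30.9% of all genes tested. The median exon length of this list was 5669.5 bases, against 4085 over all genes tested, and the part of length was not tested. For the helicase Upf1, the most counted, tumor 2 had 17.96 CPM against 94.5 to 148 CPM in the other tumors, and for the kinase Smg1 15.6 against 74.6 to 201 CPM. Proteins of paraspeckles and speckles had a median of -0.11 over 15 genes with 2 above 0, and of -0.08 with 4 above 0 without tumor 2. Tumor 2 was the lowest for 7 of the 15, against 30.9% of all genes tested. The speckle scaffolds Son (104 against 286 to 411 CPM) and Srrm2 (76.3 against 492 to 704 CPM) were among them. The paraspeckle protein Nono was the highest there, at 211 against 136 to 191 CPM.

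Among 11 microRNA processing genes the median log2 fold change was 0.05 with 6 above 0, and 0.09 with 9 above 0 without tumor 2. The RNA helicase Ddx5, the most counted, had 641 ± 93.8 CPM (SD, n = 3) and 620 ± 230 CPM (SD, n = 6), or 689 ± 173 CPM (SD, n = 5) without tumor 2. That tumor was the lowest for 8 of the 11, the nucleases Drosha and Dicer1 included, against 30.9% of all genes tested. The median exon length of this list was 7643 bases. The 10 other microRNA hosts tested, of 17 listed, had a median of 0.08 with 7 above 0, and -0.03 with 3 above 0 without tumor 2. Of 16 other long noncoding RNAs, 10 were tested, with 7 above 0 and a median of 0.27, or 0.29 without tumor 2. Tug1, the most counted, had 126 ± 33.4 CPM (SD, n = 3) and 114 ± 53.4 CPM (SD, n = 6), or 133 ± 30.3 CPM (SD, n = 5) without tumor 2, with 20.4 CPM in tumor 2 and at least 90.6 CPM in the others, and H19, Rian and Mirg were at 0 counts in every tumor.

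Genes next to the 7 transcripts were read beside them. Of 14 neighbors 11 were tested, with 8 above 0 and a median log2 fold change of 0.25, or 0.16 with 6 above 0 without tumor 2. Tumor 2 was above all other tumors in 4 of the 11 and below them in 2, against 29% and 30.9% of all genes tested. Slc3a2 and Wdr74 beside Snhg1 and Trnau1ap beside Snhg12 were highest in tumor 2, as their neighbors were, at 548 CPM against 191 to 285, 269 against 49.0 to 83.0, and 143 against 50.8 to 64.7. Zbtb37, which overlaps Gas5 on the opposite strand, was lowest there, at 5.60 CPM against 6.04 to 16.3 in the other tumors. Frmd8, near Malat1 and Neat1, had 92.6 CPM in tumor 2, within the range of 51.1 to 118 CPM in the others, while Malat1 and Neat1 were at their lowest.

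Likeness between transcripts was described by the Pearson correlation of log2 CPM over the 9 tumors, whose points share each library's scaling and, in tumor 2, its length trend. Malat1 and Neat1 correlated at 0.88, and at 0.68 without tumor 2. Gas5 correlated with Snhg1 at 0.91 (0.78 without tumor 2), and Snhg1 with Snhg12 at 0.85 (0.82). Malat1 and Gas5 went from -0.36 to 0.50 when tumor 2 was left out and Neat1 and Gas5 from -0.57 to 0.21, so the negative values for these pairs rest on that tumor. Malat1 with Snhg12 went from 0.07 to 0.85 without tumor 2, and with Snhg1 from -0.32 to 0.67. With the microRNA hosts the nuclear transcripts correlated positively, Malat1 at 0.60 with Dleu2 and 0.44 with Mir17hg, and Neat1 at 0.67 and 0.56. Without tumor 2 these values fell to 0.25 and 0.12 for Malat1 and to 0.35 and 0.31 for Neat1. Dleu2 and Gas5 were at -0.74, and at -0.53 without tumor 2. Dleu2 and Mir17hg, both microRNA hosts, were at 0.24 and -0.09.

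The gene most like each transcript was sought among 9214 others with a mean log2 CPM above 3, again over 9 tumors. The highest of so many correlations over 9 points is high by selection, and the search was not repeated without tumor 2. For Gas5 it was 1500012F01Rik (Zfas1), another snoRNA host, at 0.98 (0.96 without tumor 2), with a log2 fold change of 0.64. Snhg1 was nearest to 2700097O09Rik at 0.97 (0.93 without tumor 2) and to Oat, a mitochondrial aminotransferase, at 0.96 (0.91). Malat1 was nearest to Fam193a at 0.97, and Neat1 to Epb4.1l2, a membrane skeleton protein, at 0.96 and to Ppp1r12a, a subunit of myosin phosphatase, also at 0.96. Without tumor 2, Fam193a was at 0.91, below Ankrd12 at 0.95, which came second for Malat1 over 9 tumors. Epb4.1l2 was then at 0.86, below Ppp1r12a at 0.92, so the order of these genes depends on tumor 2. Both genes nearest to Neat1 have long exon sequence, 11843 and 8020 bases. The highest values were lower for Snhg12 (Zfp688, 0.92), Mir17hg (Pxk, 0.94) and Dleu2 (Slc2a4rg-ps, 0.89). Without tumor 2 these 3 were at 0.90, 0.93 and 0.85.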

How the data were processed

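The authors prepared mRNA libraries with the Illumina TruSeq kit, aligned reads to mm10 with STAR through the nf-core pipeline, counted them per gene with featureCounts on Gencode transcripts, and deposited raw counts. The submitters' processing notes name R 4.0.2 and DESeq2 1.28.1. The table held 0 columns without a sample. Positions, lengths and GC content came from GENCODE M21 (GRCm38), in which 97.87% of identifiers were found.

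Counts were normalized by TMM, filtered by genotype (filterByExpr) and compared with edgeR 4.0.16 in R 4.3.3 (quasi-likelihood test, Benjamini-Hochberg adjustment), all 9 tumors and no covariate. edgeR gives no standard error, so it was taken from the fold change and its F statistic. Log2 CPM used a prior count of 2. DESeq2 1.42.0, limma 3.58.1, other scalings and filters, the tissue label, a length and GC offset, replicate pairing and leaving out each tumor were alternatives. Deviations from the group means correlated at 0.443, 0.113 and 0.155 between tumors of the same replicate number, for replicates 1 to 3. The numbers were therefore treated as pairs, which come only from the labels. Correlations between tumors of different numbers were not computed, so these values cannot show that same-numbered tumors are more alike than others. The replicate 1 tumors also share the mesenteric lymph node label. Scripts were tested on simulated data.

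The 7 transcripts and the gene lists were chosen with earlier results of these data known. The genes named are the 7, those of the lists that are most or least counted or set beside a member, and those most like each member. Other list members were named after their values were seen. One listed marker and one listed neighbor gene are not reported here.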

Additional observations from a re-analysis of the deposited data

Results flagged for a closer look

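The log2 ratio of nuclear (Malat1 and Neat1) to host transcripts was far lower in Smc3/Bcl6 tumor 2 than in the other 5 Smc3/Bcl6 tumors. Its gap to the nearest of them was 0.727 of the group's whole range. It was 1 of 10 measures examined in this way, the 7 transcripts, both sums and their ratio. The cutoff for such a gap, which this ratio alone passed, is a size that about 1 of 20 groups exceed by chance. How often a gap as large as 0.727 arises was not computed. The deviation of tumor 2 from the other tumors went with exon length, and the part of length in this ratio was not tested. The ratio was 2.36 in tumor 2 and 13.2 to 25.3 in the other 5.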

How the results depend on the processing

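The number of genes past the thresholds depended on the processing. As higher, 342 genes passed with DESeq2, 108 with library totals, 576 with no filter on low counts, 374 with at least 10 counts, 642 with limma and quality weights, 45 with the replicate block, 60 with the block and a length and GC offset, 318 with the offset without Smc3/Bcl6 tumor 2, and 46 at p below 0.05, against 180. As lower, 812 passed with no filter, 309 with at least 10 counts, 1002 with limma, 192 with the tissue label, 254 with the replicate block, 248 with the block and offset, 479 with DESeq2 and the block, and 31 at p below 0.05, against 122. Leaving out each tumor gave 84 (without Bcl6 tumor 2) to 339 (without Smc3/Bcl6 tumor 2) as higher and 61 to 321 (without Smc3/Bcl6 tumors 6 and 3) as lower. DESeq2 with the block gave 2 genes at an adjusted p below 0.05, and the other settings gave 0. That setting and the offset without tumor 2 were added after the data were seen. The cause of these shifts was not tested.

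Of the 7 transcripts, 1 passed the thresholds with limma (Dleu2, log2 fold change -0.57), 1 with DESeq2 and the block (Neat1, -1.03), and 0 to 1 when a tumor was left out (Dleu2 without Bcl6 tumor 1). The replicate block alone changed no call of the 7. Leave-one-out log2 fold changes ran from -0.42 to 0.46 for Malat1, -0.41 to 0.13 for Neat1, -0.72 to -0.34 for Dleu2 and -0.18 to 0.12 for Mir17hg, and the differences in mean log2 CPM of the exact test from -0.47 to 0.22 for Malat1 and -0.23 to 0.12 for Mir17hg. Gas5, Snhg1 and Snhg12 kept their direction and their side of the thresholds under every alternative run. The sign turned with the offset without tumor 2 for Malat1 (0.072), Neat1 (0.0014) and Mir17hg (0.17), and with the block and offset for Dleu2 (0.068). For Mir17hg it also turned with DESeq2 (0.027), DESeq2's size factors (0.025), upper-quartile factors (0.016), the tissue label (0.061), the block and offset (0.022) and the offset alone (0.090). Snhg12 and Mir17hg rest on 27 to 101 and 28 to 108 counts per library, which limits their precision.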
